A study of Mus musculus with 4 samples.

Results

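Complexes I to IV of the mitochondrial respiratory chain are built largely from proteins of nuclear genes, and 52 of these genes were followed in RNA-Seq libraries of differentiating mouse brown preadipocytes. They comprise 28 genes of complex I, 4 of complex II, 8 of complex III and 12 of complex IV, out of 23109 genes with a row in the deposited tables. A gene was taken by its symbol or an older symbol of it, and among several RefSeq transcripts of a gene the one whose reads summed highest was kept. Of the 52 genes, 50 were expressed, which means above 1 RPKM (mapped reads scaled to exon length and library size) in at least 1 of the 2 Ad-GFP libraries, and the other 2 are Cox7a1 and Cox8b.

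The cells were brown preadipocytes from E18.5 embryos of C57BL/6J background, immortalized with SV40T. All of them carried the Mll3-/- deletion and a floxed Mll4 gene (Mll4 f/f). Infection with an adenovirus encoding GFP (Ad-GFP) left Mll4 in place and gave the cells labelled WT, which are Mll3-/-, while an adenovirus encoding Cre (Ad-Cre) gave Mll3-/- Mll4-/- cells, labelled MLL4 KO. MLL4 and its relative MLL3 are histone H3 lysine methyltransferases of enhancers. RNA was collected past confluence but before induction (day 0) and after 2 days (day 2) in a cocktail of insulin, T3, indomethacin, dexamethasone and IBMX. Each of the 4 conditions has 1 library, so no difference between conditions could be tested. The 95% intervals given with ratios are exact binomial intervals of the reads, cover counting error only and compare the libraries.

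As background, the respiratory chain passes electrons from NADH (through complex I) or succinate (through complex II) to ubiquinone, then through complex III to cytochrome c, and through complex IV to oxygen, and complexes I, III and IV pump protons that drive ATP synthesis. Brown fat is rich in mitochondria and can release this proton gradient as heat through UCP1. Factors such as NRF1, the ETS factor GABP and the estrogen-related receptors, with coactivators of the PGC-1 family, are known to act on many of these genes.

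The libraries held between 17198448 and 22986362 mapped reads. The library of Ad-Cre cells at day 2 stood apart in its relation to transcript length. In both comparisons that use it, the other expressed transcripts showed higher ratios the shorter they were (Spearman rho −0.38 over the 2 days with Ad-Cre and −0.35 between the cells at day 2), against −0.0067 over the 2 days with Ad-GFP and 0.082 between the cells at day 0. Its deposited counts summed to 87.8% of its mapped reads, against 96.1% to 99.4% in the other 3 libraries. Most respiratory chain genes are short (34 of the 50 expressed ones have under 1000 bases of exon), so summaries over the genes are given beside the median of like length, that of the other expressed transcripts whose exon length lay within 10% of the gene's own. Single-gene ratios are as measured unless like length is named. There were between 19 and 2003 such transcripts per gene, with a median of 227.5.

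Other features of these cells bear on the comparisons. The targeted gene Kmt2d (Mll4) had 6304 and 8530 reads with Ad-GFP at day 0 and day 2, and 6316 and 5595 with Ad-Cre. These are reads on the whole transcript, of which only a few exons were floxed, so they do not check the deletion. The RPKM of 10 adipocyte markers summed to 44.9 and 2611 in Ad-GFP cells at day 0 and day 2, and to 29.9 and 629 in Ad-Cre cells. Among 9 markers of brown adipocytes, which include Cox7a1 and Cox8b, Cidea had 0 reads in every library and Ucp1 had at most 1. In Ad-GFP cells at day 2, 2 of the 9 were above 1 RPKM, Ebf2 and Prdm16. Ebf2 was at 9.70 and 16.1 RPKM with Ad-GFP at day 0 and day 2, and at 4.77 and 11.1 with Ad-Cre. Prdm16 was at 0.554 and 2.14 RPKM with Ad-GFP, and at 0.691 and 0.677 with Ad-Cre. The 9 markers summed to 10.5 and 19.3 RPKM with Ad-GFP and to 5.94 and 12.8 with Ad-Cre, mostly Ebf2. The preadipocyte markers summed to 2381 and 426 in Ad-GFP cells and to 2147 and 769 in Ad-Cre cells, and no endothelial, macrophage or blood marker exceeded 1 RPKM. Skeletal muscle markers summed to 18.9 and 0.520 RPKM in Ad-GFP cells and to 48.5 and 4.74 in Ad-Cre cells, mostly Acta1, and neuron markers to 7.66 and 0.333 and to 3.49 and 1.54, mostly Tubb3. In bulk RNA, more cells of a differentiating type and more RNA per cell cannot be told apart, and the part of cell composition in the ratios below was not tested.

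Promoters from RefSeq (assembly GRCm38.p6, 250 bases before to 50 after the start site) were found for 42 of the 52 genes, as 44 sequences. Of the 3 genes that passed 2.5-fold upwards over the 2 days with Ad-GFP (Cyc1, Sdhd and Ndufs5), Sdhd and Ndufs5 had one, and both are shown because they lead that comparison. Uqcrc1 is shown for the palindromic NRF1 motif, with T at the free base. Capitals mark matches on either strand to the NRF1 motif (10 bases, of which the sixth was left free, as in the match GCGCAGGCGC), AAGGTCA or its longer form TCAAGGTCA (estrogen-related receptors), CCGGAAG (ETS factors such as GABP) and ATGGCGG (YY1).
Sdhd, chr9:50603800-50604099, minus strand: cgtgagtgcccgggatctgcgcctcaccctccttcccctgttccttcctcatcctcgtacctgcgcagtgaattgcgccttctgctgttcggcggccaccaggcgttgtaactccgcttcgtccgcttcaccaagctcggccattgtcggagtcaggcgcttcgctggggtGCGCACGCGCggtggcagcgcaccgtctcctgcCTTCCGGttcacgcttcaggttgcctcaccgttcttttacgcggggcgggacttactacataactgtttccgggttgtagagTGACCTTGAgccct
Ndufs5, chr4:123718137-123718436, minus strand: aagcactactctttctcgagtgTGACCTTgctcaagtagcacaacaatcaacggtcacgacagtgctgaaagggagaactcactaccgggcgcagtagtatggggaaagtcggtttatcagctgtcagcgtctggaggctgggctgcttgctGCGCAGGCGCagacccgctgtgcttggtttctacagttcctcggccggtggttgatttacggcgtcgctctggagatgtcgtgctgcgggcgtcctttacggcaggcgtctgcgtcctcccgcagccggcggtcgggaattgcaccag
Uqcrc1, chr9:108936398-108936697, plus strand: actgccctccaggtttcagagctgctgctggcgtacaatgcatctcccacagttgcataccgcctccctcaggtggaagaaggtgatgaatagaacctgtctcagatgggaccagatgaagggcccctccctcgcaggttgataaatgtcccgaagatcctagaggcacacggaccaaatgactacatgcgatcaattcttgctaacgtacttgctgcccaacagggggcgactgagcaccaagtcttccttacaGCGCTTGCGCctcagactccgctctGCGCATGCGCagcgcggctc

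In the Sdhd window, GCGCACGCGC began 79 bases before the start site, CTTCCGG 46 bases before it, and TGACCTTGA, the reverse complement of TCAAGGTCA, at base 37 after it. Sdhd was the only one of the 42 genes with the longer receptor motif (2.38%), compared with 0.309% of expressed genes and 0.466% of all genes with a promoter. A share that rests on 1 gene cannot be read as a difference. The Ndufs5 window held GCGCAGGCGC 98 bases before the start and TGACCTT 228 bases before it. The Uqcrc1 window held the palindrome from base 31 after the start and GCGCTTGCGC, a match on the other strand, from base 6. Among the 44 windows of the 52 genes, the NRF1 motif was present in 10 (22.7%), compared with 10.4% of promoters of all expressed genes and 4.60% of all promoters in the table. ATGGCGG was in 20.5% of the windows, compared with 8.39% for expressed genes and 4.05% for all promoters, and CCGGAAG in 20.5%, compared with 18.3% and 8.86%. The short receptor motif AAGGTCA, which lies within the longer one, was in 6.82%, compared with 3.02% and 4.72%. In windows of ATP synthase and mitochondrial ribosome genes, the NRF1 motif was in 35.3% and 17.4%, and ATGGCGG in 11.8% and 17.4%. CCGGAAG was in 29.4% and 30.4% of them, and AAGGTCA in 23.5% and 5.80%. A match of letters is a description of these windows and not a measured binding site.

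Levels differed widely between subunits of a complex, except in complex II. In Ad-GFP cells at day 2, median RPKM was 42.9 for complex I, 88.6 for complex II, 136 for complex III and 71.5 for complex IV. The 4 complex II genes stayed within 1.74-fold of each other in that library. The 28 complex I genes ranged over 12.9-fold, from Ndufs4, an accessory subunit of the matrix arm, to Ndufb9, an accessory subunit of the membrane arm. The range was 13.7-fold in complex III and 29.3-fold in complex IV, where Cox6a1, the widely expressed form of subunit VIa, was highest and Cox7c, a small subunit, lowest. RPKM of Cox6a1 was 281 and 432 RPKM with Ad-GFP at day 0 and day 2 and 257 and 606 with Ad-Cre at the same days. Cox7c gave 11.4 and 14.7 RPKM with Ad-GFP and 5.48 and 10.7 with Ad-Cre, from 88 and 152 reads with Ad-GFP and 48 and 87 with Ad-Cre. These 2 genes were at the ends of complex IV in all 4 libraries, but 42.7% of 50-base windows of Cox6a1 and 48.7% of those of Cox7c match elsewhere in the genome, so their levels, and with them the range of complex IV, are uncertain. The range of complex III is uncertain too, since 92.2% of the windows of its lowest gene, Uqcrb at 19.8 RPKM, match elsewhere. Next lowest there was Uqcrc2 at 45.5 RPKM, of which no window does.

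**Figure D1:**
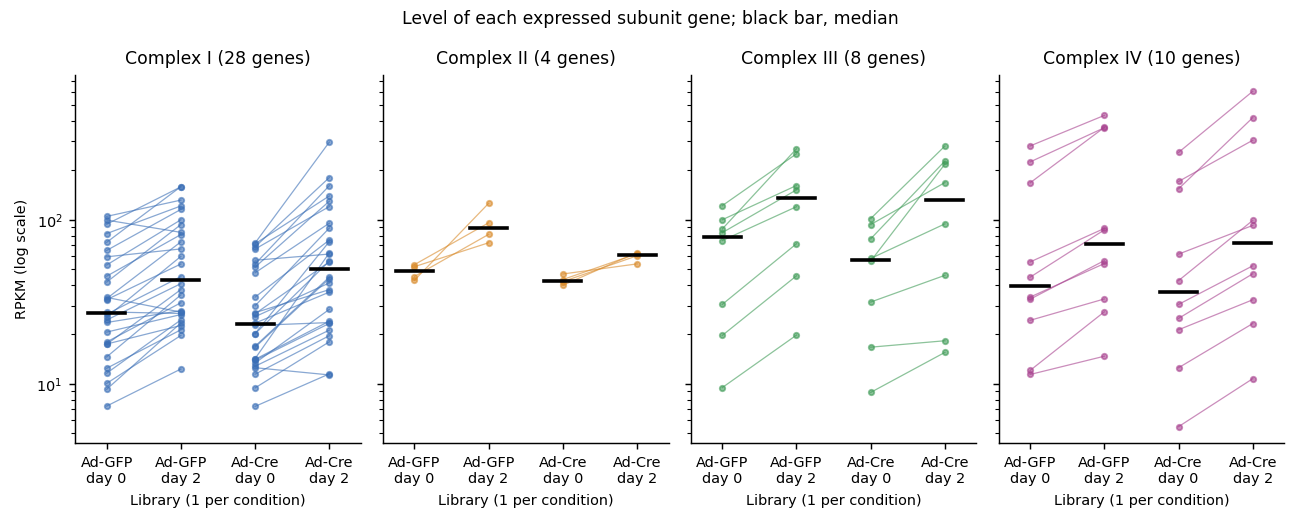
RPKM (log scale) of the 50 expressed subunit genes in the 4 libraries, by complex, with lines joining day 0 and day 2 of the same cells and black bars at the median. The complex II genes lie within 1.74-fold of each other in Ad-GFP cells at day 2, and complex IV spreads over 29.3-fold.

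Some of the genes have transcripts that are repeated elsewhere in the genome. Windows of 50 bases of each annotated transcript were compared with the rest of the NCBI37/mm9 genome, allowing 2 mismatches. For 18 expressed genes no window matched elsewhere, and their median was 88.6 RPKM in Ad-GFP cells at day 2. For 7 genes (Ndufs3, Ndufs5, Ndufa7, Uqcrb, Uqcr11, Cox5b and Cox6c) at least 60% of windows matched elsewhere, and the median was 27.4 RPKM, with a range of 19.8 to 152. How the authors' counting treated reads with several matches is not given in the sources used here, so the levels of these 7 genes are uncertain, as are, to a lesser degree, those of the 12 genes with 20% to under 60%. The part of repeated windows in their levels was not tested, and their exons are also shorter (median 503 against 1187 bases).

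Complex IV has subunits with tissue-specific forms, and the cells had mainly the widely expressed ones. Cox7a1, the form of subunit VIIa of muscle and brown fat, had 1 and 1 reads with Ad-GFP at day 0 and day 2 and 3 and 4 with Ad-Cre. Cox8b, the form of subunit VIII of those tissues, had 0 and 1 reads with Ad-GFP and 0 and 0 with Ad-Cre. No window of either transcript matched elsewhere in the genome, and the highest values were 0.606 RPKM for Cox7a1 and 0.120 for Cox8b. Their widely expressed counterparts were abundant. Cox7a2 was at 24.4 and 32.9 RPKM with Ad-GFP at day 0 and day 2 and at 21.3 and 32.5 with Ad-Cre. Cox8a was at 225 and 363 RPKM with Ad-GFP and 171 and 305 with Ad-Cre. Windows that match elsewhere made up 19.7% of Cox7a2 and 45.4% of Cox8a, so the level of Cox8a is uncertain.

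A similar division held for other pairs of forms, except for Cox6b2, which was above 1 RPKM in every library. Cox6a2 of heart and muscle had 6 and 13 reads with Ad-GFP at day 0 and day 2 and 10 and 3 with Ad-Cre, and Cox4i2, the lung form of subunit IV, 1 and 1 reads with Ad-GFP and 0 and 3 with Ad-Cre. Cox7b2 and Cox8c, known from testis, had 0 reads in every library. Cox6b2, another testis form, had 24 and 28 reads with Ad-GFP (2.53 and 2.21 RPKM) and 15 and 90 with Ad-Cre (1.40 and 9.06 RPKM). Its log2 ratio between the cells at day 2 was 2.03. Cox6b1, the widely expressed counterpart of Cox6b2, was at 55.3 and 88.5 RPKM with Ad-GFP and 42.5 and 99.1 with Ad-Cre, with 29.8% of its windows matching elsewhere. Cox7b, which is X-linked, was at 32.8 and 56.3 RPKM with Ad-GFP and 25.04 and 46.8 with Ad-Cre, with 38.4% of its windows matching elsewhere. Cox7a2l, which is related to subunit VIIa and helps join complexes III and IV, was at 38.4 and 69.9 RPKM with Ad-GFP and 27.8 and 95.1 with Ad-Cre, with 82.4% of its windows matching elsewhere. All of the widely expressed forms were higher at day 2 than at day 0 in both kinds of cells.

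With MLL4 present, the chain's transcripts were higher at day 2 than at day 0 in nearly every case. The comparison of day 2 with day 0 in Ad-GFP cells asks how the genes moved as these cells differentiated. The median log2 ratio of the 50 genes was 0.79, a ratio of 1.73, against 0.13 for all expressed transcripts and 0.11 for transcripts of like length. The interval lay above 0 for 45 genes, compared with 46.2% of all 15908 expressed transcripts, and below 0 for 2, compared with 35.0%. Less the median of like length, 47 of the 50 lay above 0, compared with 50.1% of expressed transcripts, and 3 below, compared with 49.7%. The median difference was 0.69, and 2 genes (Cyc1 and Sdhd) were then over 2.5-fold higher, compared with 6.95%. Yet only 3 genes (6%) passed a 2.5-fold cutoff upwards, near the 8.38% of all expressed transcripts, and none passed it downwards, compared with 12.6%. The shift was broad and mostly below 2.5-fold.

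The largest ratios were in complexes III and II. Cyc1 encodes cytochrome c1, the subunit that hands electrons to cytochrome c, and the annotation of NCBI37/mm9 places it on chr15:76173953-76176364, plus strand. It had 1802 and 7424 reads with Ad-GFP at day 0 and day 2 (87.8 and 270.5 RPKM), a log2 ratio of 1.62 (95% interval 1.55 to 1.70), and 2176 and 3627 reads with Ad-Cre (93.4 and 168 RPKM), a log2 ratio of 0.85 (0.77 to 0.93). Its level in Ad-GFP cells at day 2 was the highest of complex III and above those in the other 3 libraries. Sdhd, a membrane anchor of complex II on chr9:50404443-50411954, minus strand, had 945 and 3719 reads with Ad-GFP (42.8 and 126 RPKM), a log2 ratio of 1.56 (1.45 to 1.66), and 1083 and 1439 with Ad-Cre (43.2 and 62.1 RPKM), a log2 ratio of 0.52 (0.41 to 0.64). Ndufs5, an accessory subunit of complex I, had 81 and 275 reads with Ad-GFP (9.25 and 23.5 RPKM), a log2 ratio of 1.34 (0.98 to 1.72), and 127 and 195 with Ad-Cre (12.8 and 21.2 RPKM). The interval of Ndufs5 reached well below the cutoff, and it is among the genes with repeated windows.

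The other complex II genes were higher at day 2 as well. Sdha, the flavoprotein that oxidizes succinate, was at 53.2 and 95.8 RPKM with Ad-GFP and 46.7 and 53.8 with Ad-Cre. For Sdhb, the iron-sulfur subunit, the values were 51.8 and 72.4 RPKM with Ad-GFP and 41.9 and 60.3 with Ad-Cre, and for Sdhc, the second membrane anchor, 45.1 and 81.4 RPKM with Ad-GFP and 39.9 and 63.1 with Ad-Cre. The intervals of all 4 genes lay above 0 in Ad-GFP cells and also in Ad-Cre cells. In Ad-GFP cells their median log2 ratio was 0.85, next to 1.06 for complex III, 0.77 for complex I and 0.69 for complex IV. In complex III the lowest ratio was that of Uqcrc1, a core protein, at 74.6 and 120.0 RPKM with Ad-GFP and 58.1 and 94.3 with Ad-Cre, with a log2 ratio of 0.69 in Ad-GFP cells. Every gene of complexes II and III had an interval above 0, and 9 of the 10 expressed genes of complex IV did, the exception being Cox7c at 0.37 (−0.02 to 0.77). In complex IV the ratio was highest for Cox5b, at 12.1 and 27.4 RPKM with Ad-GFP, a log2 ratio of 1.19, and 12.5 and 23.3 with Ad-Cre. Of its windows, 87.2% match elsewhere in the genome.

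Complex I held the only genes with an interval below 0. Of its 28 genes, 24 had an interval above 0 in Ad-GFP cells and 2 below it. The 6 core subunits of the matrix arm among them (Ndufs1, Ndufs3, Ndufs7, Ndufs8, Ndufv1 and Ndufv2), most of which bind NADH or carry the electrons, had a median log2 ratio of 0.87, and the 22 others 0.75. The 2 genes with an interval below 0 were Ndufa1, an X-linked accessory subunit, at −0.30 (−0.53 to −0.06), and Ndufb7 at −0.25 (−0.38 to −0.12). Ndufs4 was at 7.32 and 12.3 RPKM with Ad-GFP and 7.28 and 11.5 with Ad-Cre, the lowest level of the complex in every library but that of Ad-Cre cells at day 2, where Ndufs1 was lowest.

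**Figure D2:**
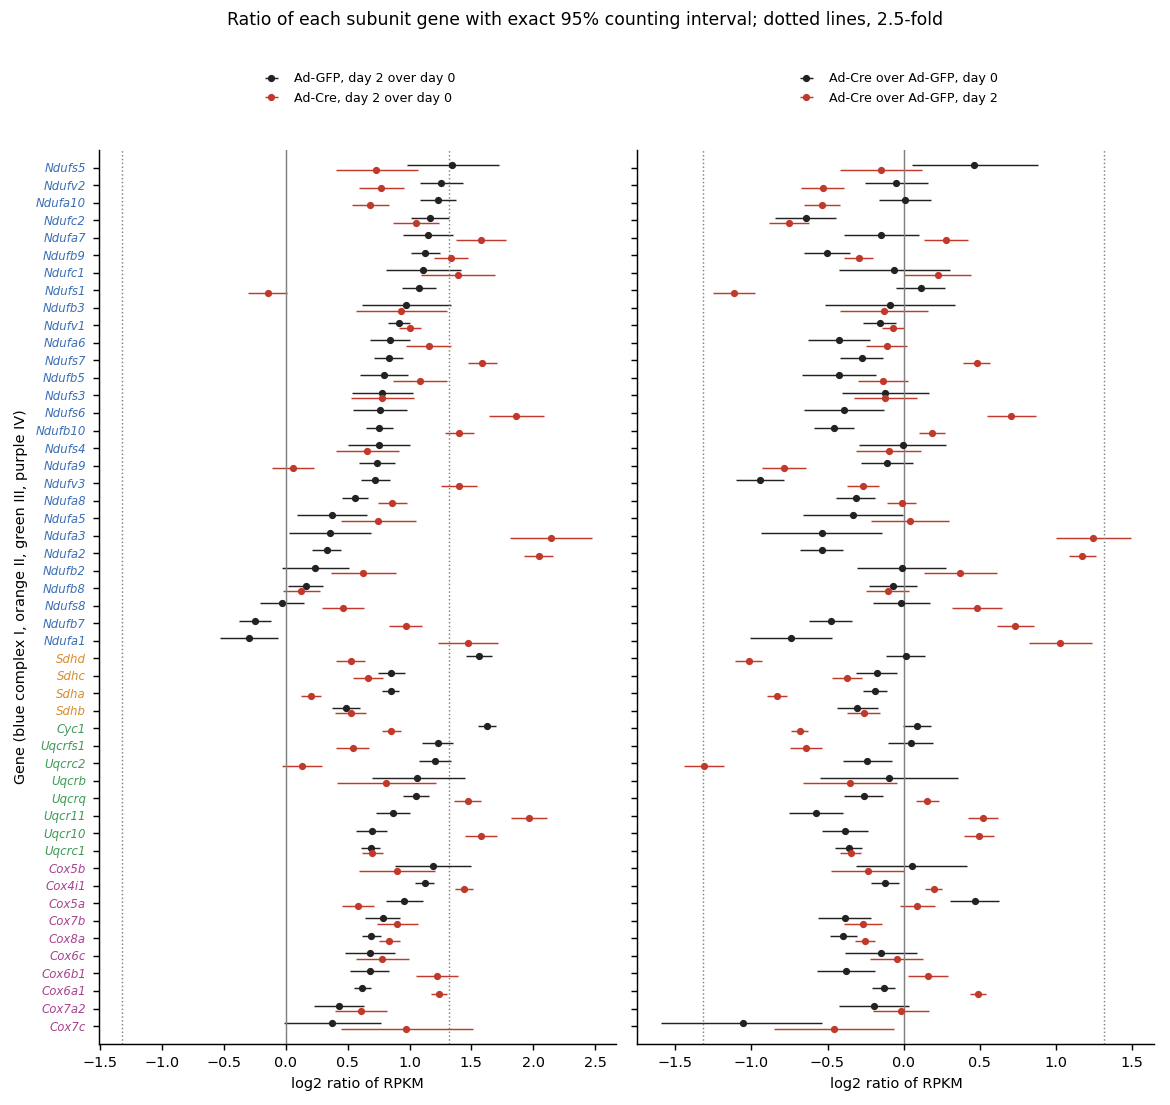
Log2 ratio of RPKM of each expressed subunit gene, with exact 95% binomial intervals of the reads, for day 2 over day 0 (left; black Ad-GFP, red Ad-Cre) and Ad-Cre over Ad-GFP (right; black day 0, red day 2). Dotted lines mark 2.5-fold, passed upwards by 3 genes with Ad-GFP and 14 with Ad-Cre over the 2 days and by none between the cells at either day.

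Without MLL4, the ratios of day 2 to day 0 were as large before length was taken into account and smaller after it. The median log2 ratio in Ad-Cre cells was 0.88, against −0.04 for all expressed transcripts, but transcripts of like length had a median of 0.80. The interval lay above 0 for 46 of the 50 genes, compared with 38.4% of expressed transcripts, and below 0 for none, compared with 42.0%. Less the median of like length, the median difference was 0.16, with 32 genes above and 18 below, compared with 49.9% of expressed transcripts above. Over 2.5-fold higher were 14 genes (28%), compared with 8.3% of all expressed transcripts, and none was lower, compared with 10.3%. By length class, 40.9% of the genes under 600 bases passed, against 31.3% of other expressed transcripts. From 600 to under 1000 bases the shares were 33.3% against 21.1%, and from 1000 bases 6.25% against 6.71%. After the median of like length was taken off, none of the 50 passed the cutoff, compared with 7.01% of expressed transcripts upwards and 9.01% downwards.

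Of the 14 genes past the cutoff in Ad-Cre cells, 10 were of complex I, 3 of complex III and 1 of complex IV. The highest ratio was that of Ndufa3, an accessory subunit, at 2.14 (1.82 to 2.48), whose reads were 124 and 212 reads with Ad-GFP and 97 and 395 with Ad-Cre (20.7 and 26.4 RPKM with Ad-GFP and 14.2 and 62.8 with Ad-Cre). With 349 bases of exon it has the shortest transcript of the 50, and the 19 transcripts of like length had a median log2 ratio of 1.40. Ndufa2, an accessory subunit, was at 105 and 132 RPKM with Ad-GFP and 72.1 and 297 with Ad-Cre, and Ndufa1 at 33.6 and 27.4 RPKM with Ad-GFP and 20.2 and 55.9 with Ad-Cre. Ndufa7 was at 33.1 and 73.3 RPKM with Ad-GFP and 29.9 and 88.9 with Ad-Cre. Each of these 4 accessory genes has under 600 bases of exon and was highest in Ad-Cre cells at day 2.

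Other complex I genes past the cutoff were Ndufs6, whose kept row is a non-coding transcript of the gene, at 26.6 and 45.0 RPKM with Ad-GFP and 20.2 and 73.6 with Ad-Cre, and the core subunit Ndufs7 at 65.0 and 116 RPKM with Ad-GFP and 53.7 and 161 with Ad-Cre. So did 3 accessory genes of the membrane arm. Ndufb9 was at 72.8 and 159 RPKM with Ad-GFP and 51.4 and 129.7 with Ad-Cre, Ndufb10 at 93.9 and 159 RPKM with Ad-GFP and 68.4 and 181 with Ad-Cre, and Ndufc1 at 17.4 and 37.5 RPKM with Ad-GFP and 16.7 and 43.8 with Ad-Cre. Ndufv3, a small flavoprotein subunit with 1579 bases of exon, was the only one of the 14 longer than 1000 bases, at 32.6 and 53.7 RPKM with Ad-GFP and 16.9 and 44.7 with Ad-Cre, and it started from the lower level in Ad-Cre cells.

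In complex III, 3 small subunits were past the cutoff in Ad-Cre cells and the large ones were not. Uqcrq was at 122 and 252 RPKM with Ad-GFP and 102 and 281 with Ad-Cre, Uqcr10 at 99.9 and 162 RPKM with Ad-GFP and 76.5 and 228 with Ad-Cre, and Uqcr11 at 83.3 and 152 RPKM with Ad-GFP and 56.0 and 218 with Ad-Cre. Their log2 ratios in Ad-Cre cells were 1.47, 1.58 and 1.96, against 1.07, 1.17 and 1.17 for transcripts of like length. The ratio of the core protein Uqcrc2 was 0.13 (−0.03 to 0.29), against 0.16. Uqcrb, also small, was the lowest of the complex in level, at 9.48 and 19.8 RPKM with Ad-GFP and 8.86 and 15.5 with Ad-Cre. Windows that match elsewhere made up 92.2% of Uqcrb, 90.7% of Uqcr11, 56.9% of Uqcr10 and 20% of Uqcrq. The last of the 14 was Cox4i1, the regulatory subunit IV of complex IV, at 168 and 365 RPKM with Ad-GFP and 154 and 419 with Ad-Cre. Across the 50 genes the ratio in Ad-Cre cells had a Spearman rho of −0.59 with exon length, and 0.03 once the median of like length was taken off, which describes genes of the same 2 libraries.

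**Figure D3:**
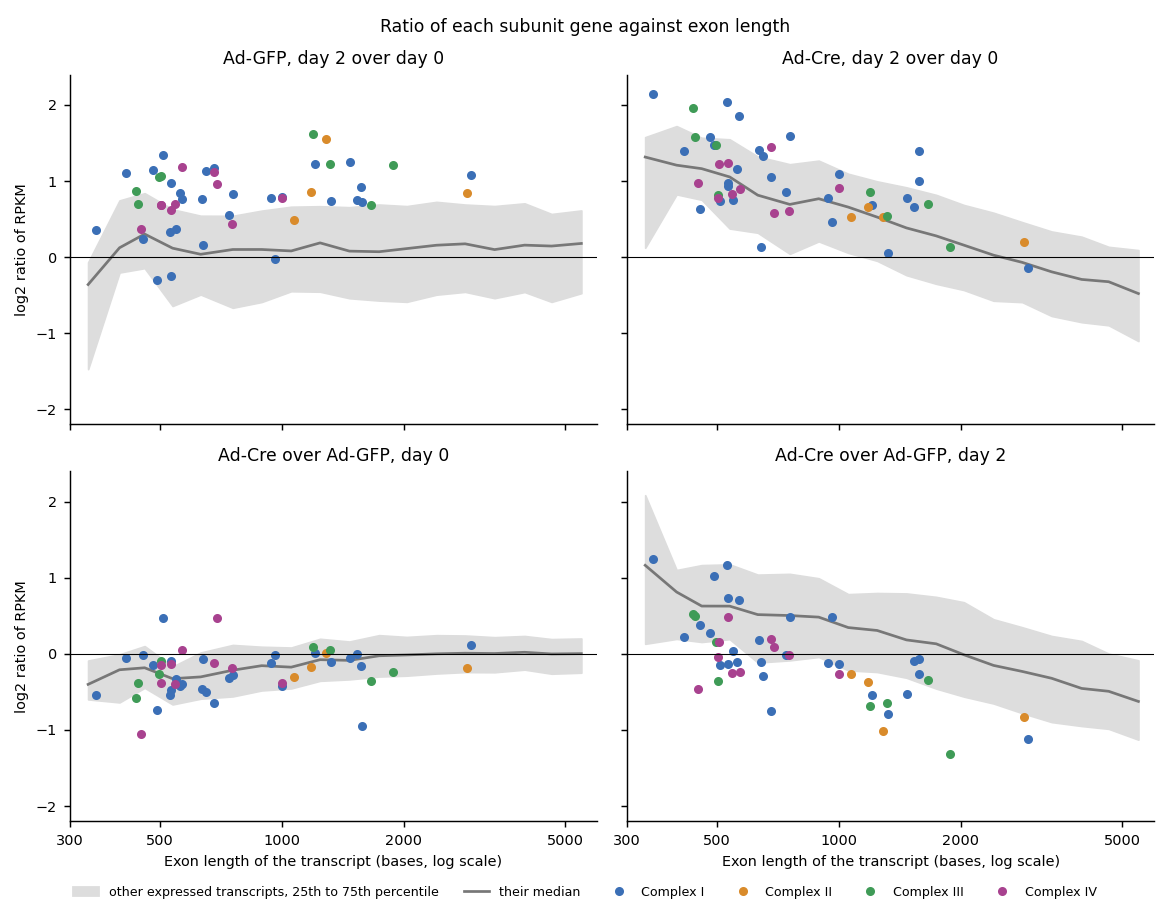
Log2 ratio of RPKM against exon length (log scale) in the 4 comparisons, with the subunit genes as points coloured by complex over the median (line) and 25th to 75th percentile (band) of other expressed transcripts. The line slopes down in both panels that use the Ad-Cre library of day 2, where Spearman rho over the subunit genes was −0.59 and −0.66.

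Before differentiation, the libraries of the 2 kinds of cells differed little in these genes. At day 0 the log2 ratio of Ad-Cre over Ad-GFP had a median of −0.19, against −0.22 for transcripts of like length, and less that median it was −0.05. No gene passed 2.5-fold in either direction, compared with 1.23% of expressed transcripts upwards and 4.03% downwards, and none did less like length, compared with 1.33% and 3.92%. The interval lay below 0 for 29 genes, compared with 29.3%, and above 0 for 2 (Ndufs5 and Cox5a), compared with 26.7%. The lowest ratios were those of Cox7c, at −1.06 (−1.60 to −0.53), and Ndufv3, at −0.94 (−1.10 to −0.78).

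At day 2, which asks how the levels compare with and without MLL4 once differentiation has begun, most of the genes lay below other transcripts of their length. The log2 ratio between the cells (Ad-Cre over Ad-GFP) had a median of −0.11, between −0.19 for all expressed transcripts and 0.52 for transcripts of like length. By mapped reads 19 genes were higher and 31 lower in Ad-Cre cells, a split that TMM factors of edgeR turned to 30 higher and 20 lower and that is therefore not a direction. Less the median of like length, a difference that library scaling cannot move, the median was −0.55 and 44 of the 50 lay below 0, while 6 lay above it, compared with 49.7% of expressed transcripts, for which the 25th and 75th percentiles were −0.53 and 0.57. The median by complex was −0.51 in complex I, −0.67 in complex II, −0.69 in complex III and −0.57 in complex IV. All genes of complexes II, III and IV lay below their like-length median, and 6 of complex I lay above it.

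No gene passed 2.5-fold between the cells at day 2 in either direction, compared with 7.91% of expressed transcripts upwards and 10.2% downwards. The interval lay below 0 for 19 genes, compared with 48.2%, and above 0 for 17, compared with 32.7%. Nearest to the cutoff was Uqcrc2, a core protein of complex III on chr7:127778690-127802992, plus strand. It had 638 and 1969 reads with Ad-GFP at day 0 and day 2 (19.7 and 45.5 RPKM) and 614 and 621 with Ad-Cre (16.7 and 18.3 RPKM), a log2 ratio at day 2 of −1.31 (−1.45 to −1.18), against 0.08 for transcripts of like length. Only the Ad-GFP library of day 2 was high for Uqcrc2. Ndufs1, the largest core subunit of complex I, on chr1:63190170-63223396, minus strand, had 584 and 1649 reads with Ad-GFP (11.6 and 24.5 RPKM) and 716 and 598 with Ad-Cre (12.5 and 11.3 RPKM), a log2 ratio at day 2 of −1.11 (−1.25 to −0.98), against −0.24. It too was high only in Ad-GFP cells at day 2. Sdhd followed at −1.02 (−1.11 to −0.93).

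With the median of like length taken off, Uqcrc2 and Sdhd were lowest. Uqcrc2 was then at −1.39, the 1 gene past 2.5-fold, compared with 6.51% of expressed transcripts (and none upwards, compared with 8.83%), followed by Sdhd at −1.32, Ndufc2 at −1.26, Cox7c at −1.13 and Cyc1 at −1.03. At the other end, Ndufa2 was 0.54 and Ndufa1 0.43 above transcripts of their length. The 16 genes of 1000 bases or more had a median log2 ratio of −0.53, against −0.25 for other expressed transcripts of the class, and every one lay below its like-length median. In the 22 genes under 600 bases the median was 0.19, against 0.58, and in the 12 genes from 600 to under 1000 bases −0.01, against 0.48. In each class of length the chain's genes were below the others. For the 18 genes without repeated windows the median less like length was −0.61, beside −0.55 for all 50.

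The difference between the changes over the 2 days puts all 4 libraries together. Per gene, the log2 ratio of day 2 to day 0 in Ad-Cre cells less that in Ad-GFP cells had a median of 0.16, with 31 genes above 0, compared with 45.1% of expressed transcripts, and 19 below. Less the same difference for transcripts of like length it was −0.47, with 9 above and 41 below, compared with 48.9% of expressed transcripts below. By complex the length-matched median was −0.46 in complex I, −0.54 in complex II, −0.72 in complex III and −0.46 in complex IV. This difference had no replicate and was not tested.

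**Figure D4:**
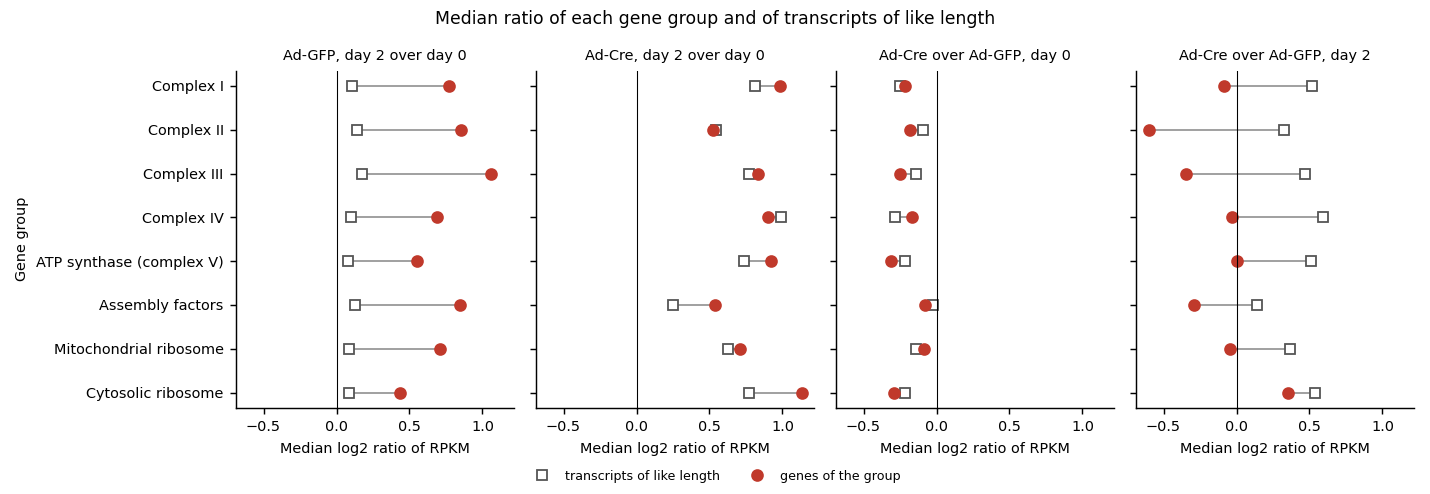
Median log2 ratio of RPKM in the 4 comparisons for complexes I to IV, ATP synthase, assembly factors and both ribosomes (red points), beside the median of transcripts of like length (open squares). In Ad-Cre over Ad-GFP at day 2, the red points lie to the left of the squares in every group, at −0.08 against 0.52 in complex I and −0.60 against 0.32 in complex II.

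Other genes of the pathway were taken from lists chosen with earlier results of these data known. The 15 genes of ATP synthase, which uses the proton gradient, had a median log2 ratio of 0.55 over the 2 days in Ad-GFP cells, 0.92 in Ad-Cre cells and 0.0023 between the cells at day 2. Less like length, that last value was −0.54, with 12 of 15 genes below 0. The median of 0.0023 is the value of Atp5g2, of whose windows 100% match elsewhere. Atp5g2 had 13 and 14 reads with Ad-GFP and 7 and 11 with Ad-Cre, and its interval was −1.28 to 1.25. No ATP synthase gene passed 2.5-fold in Ad-GFP cells, and 4 did in Ad-Cre cells (Atp5e, Atp5h, Atp5j2 and Atp5k), at log2 ratios of 1.74, 1.72, 1.67 and 1.51. These are 26.7% of the list, whose median exon length is 758 bases, compared with 8.3% of all expressed transcripts. Other expressed transcripts under 600 bases gave 31.3%, and those from 600 to under 1000 bases 21.1%. Less like length none of the list passed, compared with 7.01% of expressed transcripts. Of the windows of Atp5h 89.4% match elsewhere, of Atp5k 36.8%, of Atp5j2 27.1% and of Atp5e 1.61%, so the level of Atp5h above all is uncertain. A further 12 expressed subunits of complexes I, III and IV outside the 50 had medians of 0.58 with Ad-GFP and 1.17 with Ad-Cre, and −0.28 at day 2 less like length. Among these, Ndufa13, Uqcrh, Cox7a2l and Cox6b2 (33.3%) passed 2.5-fold upwards in Ad-Cre cells, against the same shares. Less like length 1 gene of the 12 passed, compared with 7.01% of expressed transcripts.

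The 34 assembly factors, which build the complexes but do not stay in them, are mostly longer genes. Their median log2 ratio over the 2 days was 0.85 with Ad-GFP and 0.54 with Ad-Cre, and 8 passed 2.5-fold upwards in Ad-GFP cells (Ndufaf4, Ndufaf6, Ecsit, Foxred1, Timmdc1, Lyrm7, Cox15 and Lrpprc). That is 23.5% of the list, compared with 8.38% of all expressed transcripts, and 6 genes passed less like length, compared with 6.95%. In Ad-Cre cells 4 factors (11.8%) passed upwards, compared with 8.3%, and 1 less like length, compared with 7.01%. Lyrm7, which serves the Rieske protein of complex III, had 4 and 55 reads with Ad-GFP and 7 and 18 with Ad-Cre. Of the 34 factors, 3 were over 2.5-fold lower without MLL4 at day 2, namely Nubpl, Cox15 and Lrpprc, a share of 8.82%, compared with 10.2% of all expressed transcripts. After like length was taken off, 3 factors passed as well, compared with 6.51%, though not necessarily these 3. Cox15 and Lrpprc have 4798 and 4621 bases of exon. Other expressed transcripts of 4301 to under 5080 bases had a median of −0.49 in this comparison. Nubpl rests on few reads, 16 and 34 with Ad-GFP and 12 and 8 with Ad-Cre. For Lrpprc, which stabilizes mitochondrial mRNAs, RPKM was 8.37 and 24.6 RPKM with Ad-GFP and 8.71 and 7.93 with Ad-Cre, and for Cox15, of heme A synthesis, 6.11 and 16.2 RPKM with Ad-GFP and 6.82 and 4.90 with Ad-Cre. Both were high only in Ad-GFP cells at day 2, like Uqcrc2 and Ndufs1.

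Among 16 regulators, the coactivator gene Ppargc1b stood out. It had 33 and 2287 reads with Ad-GFP at day 0 and day 2 (0.525 and 27.2 RPKM) and 37 and 494 with Ad-Cre (0.519 and 7.49 RPKM), a log2 ratio at day 2 of −1.86. Its relative Ppargc1a, a coactivator of the thermogenic program, had 4 and 9 reads with Ad-GFP and 0 and 0 with Ad-Cre. Esrra, which encodes an estrogen-related receptor, was at 16.2 and 51.1 RPKM with Ad-GFP and 22.7 and 39.3 with Ad-Cre, a log2 ratio of 1.65 over the 2 days in Ad-GFP cells and 0.79 with Ad-Cre. Nrf1 and Gabpa, by contrast, had log2 ratios of 0.05 and −0.0083 over the 2 days in Ad-GFP cells. Nrf1 was at 10.5 and 10.9 RPKM with Ad-GFP and 9.33 and 9.72 with Ad-Cre, and Gabpa at 11.3 and 11.2 RPKM with Ad-GFP and 10.9 and 6.31 with Ad-Cre. Tfam, of mitochondrial DNA maintenance, was at 6.00 and 10.8 RPKM with Ad-GFP and 5.85 and 7.33 with Ad-Cre. Tfb1m was over 2.5-fold higher over the 2 days in Ad-GFP cells, at 1.60, and Tfb2m over 2.5-fold lower without MLL4 at day 2, at −1.45. Both act in the mitochondrial expression machinery. Of the 12 expressed regulators, 3 (25%) passed upwards with Ad-GFP, compared with 8.38% of expressed transcripts, and 2 (16.7%) downwards at day 2, compared with 10.2%. After like length was taken off the counts were again 3 and 2, compared with 6.95% and 6.51%, though not necessarily of the same genes. The 12 expressed regulators are long genes, with a median of 3402.5 bases, and their median log2 ratio between the cells at day 2 was −0.57, against −0.32 for transcripts of like length. Less like length it was −0.19, with 9 genes below 0 and 3 above.

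Cycs, the gene of the electron carrier cytochrome c, was below 1 RPKM in every library, with 10 and 64 reads with Ad-GFP and 21 and 21 with Ad-Cre. Windows that match elsewhere made up 42.7% of its transcript, so its low count is uncertain. Ucp1 had 1 and 0 reads with Ad-GFP and 1 and 1 with Ad-Cre, so the gene of heat release was at or below the limit of 3 reads, beside chain transcripts of up to 432 RPKM at day 2 in Ad-GFP cells.

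Ribosomal genes describe the same libraries outside the chain. Their median exon length was 703 bases for the cytosolic and 1055 for the mitochondrial ribosome, beside 665 for the chain. Repeated windows were not counted for either list. Some cytosolic genes had few reads, such as Rpl36a with 9 and 16 with Ad-GFP. The interval held 0 for 29 of the 77 cytosolic genes over the 2 days with Ad-GFP and for 27 between the cells at day 2. The 71 expressed genes of the mitochondrial ribosome, which translates the chain's mitochondrially encoded subunits, had a median log2 ratio of 0.71 over the 2 days with Ad-GFP and 0.71 with Ad-Cre. For the 77 genes of the cytosolic ribosome the medians were 0.44 and 1.13. Between the cells at day 2, less like length, the median was −0.33 for the mitochondrial and −0.12 for the cytosolic ribosome, beside −0.55 for the respiratory chain. These medians describe the lists, and their differences were not tested.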

How the data were processed

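RNA was sequenced from 1 library in each of 4 conditions, as 50-base reads. The deposited tables give, per RefSeq transcript, a read count and an RPKM value that the authors computed from exon reads on mm9; how the authors' counting treated reads with several matches is not given in the sources used here. The submitters' processing notes name SICER 1.1 and bedtools 2.16. Gene symbols were matched for 97.8% of the 29082 transcripts. Ratios of RPKM were formed on all 15908 expressed transcripts (above 1 RPKM in either Ad-GFP library), with no pseudocount, and exact binomial (Clopper-Pearson) intervals at 95% came from the counts. Like length means within 10%, leaving out the 52 genes' own transcripts. The 3-read limit is per library. With 1 library per condition no test was made.

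The members and gene lists were chosen with earlier results of these data known. Genes named are those past 2.5-fold in a comparison, the ends of each complex and tissue-specific forms with their counterparts; Ndufb7, Ndufs8, Ndufc2 and Cox5a were named after their values were seen. Windows of 50 bases were matched with blastn 2.17.0. Other tools were Python 3.11.15, numpy 2.4.6, pandas 2.3.3, scipy 1.17.1, matplotlib 3.10.9, R 4.3.3 and edgeR 4.0.16 (TMM factors only). Scripts were tested on simulated data.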

Additional observations from a re-analysis of the deposited data

Results flagged for a closer look

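In 4 genes of complex I, day 2 over day 0 went opposite ways in the 2 kinds of cells. Ndufa1 had a log2 ratio of −0.30 with Ad-GFP and 1.47 with Ad-Cre. For Ndufb7 the ratios were −0.25 and 0.97, and for Ndufs8 −0.03 and 0.47. Ndufs1 went the other way, at 1.08 with Ad-GFP and −0.15 with Ad-Cre. The counting interval held 0 for Ndufs8 with Ad-GFP and for Ndufs1 with Ad-Cre. These differences rest on 1 library per condition and were not tested. Ndufs1 has the longest transcript of the 4, and the ratios in Ad-Cre cells vary with transcript length. With the median of like length taken off, Ndufb7 was at −0.37 with Ad-GFP and −0.10 with Ad-Cre, and Ndufs8 at −0.13 and −0.25. These 2 genes then went the same way in both kinds of cells. Ndufa1 was at −0.51 and 0.47 and Ndufs1 at 0.93 and −0.04, still opposite. With library sizes from summed counts and length not taken off, Ndufs1 was at 0.03 with Ad-Cre, and 48 of the 50 genes were higher at day 2 with Ad-GFP and all 50 with Ad-Cre, so only Ndufa1 and Ndufb7 still went opposite ways. TMM factors left 3 of the 50 genes lower with Ad-GFP and 1 with Ad-Cre, the same numbers as by mapped reads.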

How the results depend on the processing

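Alternatives comprised 14 chosen at the outset and 5 added after the data were seen, as were the length classes and the split of complex I. Of 195 recomputed summary values, 162 stayed within their margin and 33 moved. Among those that moved, the day 2 median and the difference of changes crossed 0 (values below), so neither has a settled sign before length is taken off. In Ad-GFP cells over the 2 days, the 3 genes past 2.5-fold became 16 at 2-fold, 38 at 1.5-fold and 1 with a trend over length and GC content removed. In Ad-Cre cells the median was 1.06 scaled by summed counts, 0.30 with the trend removed, 1.19 under 700 bases and 0.66 from 1000 bases, and the 14 genes past the cutoff became 40 at 1.5-fold, 9 by the near interval bound, and 0 with the trend removed or less like length. At day 0, without the expression filter 1 gene was higher, and 1 was lower at 2-fold and 4 at 1.5-fold. At day 2 the median was 0.076 with TMM factors (which moved the median of all expressed transcripts from −0.19 to −0.01), 0.024 by summed counts, −0.54 with the trend removed, −0.28 without repeated windows, 0.16 under 700 bases and −0.53 from 1000 bases. Higher genes then numbered 2 (TMM), 1 (summed counts), 1 (no filter), 3 (2-fold) and 5 (1.5-fold), and lower ones 3 (2-fold), 8 (1.5-fold), and 1 with the trend removed or less like length. The median less like length was −0.68 when matched within 25% of length and 2-fold of level. The difference of changes was −0.45 with the trend removed, 0.38 under 700 bases and −0.52 from 1000 bases. For the 2-fold and 1.5-fold cutoffs no share of all expressed transcripts is given, so those counts cannot be read against other transcripts. The cause of these moves was not tested, beyond what fewer genes or another cutoff give by construction. No paired analysis was possible because each condition has 1 library, and no replicate could be left out. Intervals cover counting error only.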
